A study of Mus musculus with 20 samples.

Results

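The 9 genes described here encode transient receptor potential (TRP) cation channels of the canonical subfamily (Trpc1, Trpc4, Trpc5, Trpc6, Trpc7) and the melastatin subfamily (Trpm2, Trpm3, Trpm4, Trpm7). They were found by their symbols among the 48795 genes of the count table, and all 9 were among the 17313 genes with enough counts to test. Messenger RNA was sequenced from 20 mice, the offspring of CD-1 dams, with 5 libraries in each of 4 groups. MIR (maternal inflammatory response) offspring came from dams injected intraperitoneally with lipopolysaccharide at 0.008 mg/kg on gestation day 9, and control offspring from dams injected with saline. The offspring then received rapamycin, an inhibitor of the kinase mTOR, or its vehicle, and the brain was frozen 2 hours later. The groups are called MIR rapamycin, MIR vehicle, control rapamycin and control vehicle, and a library is named by its group and number. The labels give the tissue as brain and the methods as microdissected sensory-motor cortex, while age, sex and litter of these mice are not in the labels. CD-1 is an outbred stock, and littermates share the exposure of their dam. The study's litter records name a small number of litters of each kind of offspring for sequencing with and without rapamycin, but tie no library to a litter.

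TRP channels are tetramers that let sodium, calcium and other cations into the cell. TRPC channels open downstream of Gq-coupled receptors and phospholipase C: TRPC6 and TRPC7 respond to diacylglycerol, while TRPC4 and TRPC5 assemble with each other and with TRPC1 and depolarise neurons after metabotropic receptor activation. TRPM channels differ more in how they open. TRPM2 is gated by ADP-ribose and calcium, TRPM3 by heat and the neurosteroid pregnenolone sulfate, and TRPM4 by intracellular calcium, while TRPM7 joins a magnesium- and zinc-permeable pore to a protein kinase.

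TRPC channels carry a short conserved motif just after the last membrane-spanning helix, the TRP box. Its coding sequence is shown for Trpc1, Trpc4, Trpc5 and Trpc6, to set a feature these members share beside their levels. The capitals mark the codons of the box, and the lower-case letters the codons on either side.
Trpc1: gataaaGAATGGAAGTTTGCTCGAgcaaag
Trpc4: gatataGAATGGAAATTTGCTCGAacaaag
Trpc5: gatattGAGTGGAAGTTTGCGAGAacaaag
Trpc6: gacgtgGAGTGGAAGTTTGCAAGGgccaaa
The box lies at codons 675 to 680 of Trpc1, 634 to 639 of Trpc4, 638 to 643 of Trpc5 and 740 to 745 of Trpc6, in the GENCODE transcripts on mm10. This exact motif was not found in the coding sequences of the 4 TRPM genes. Identity was taken over the aligned bases of the coding sequences, with gapped positions left out. By this measure Trpc4 and Trpc5 were 71.3% identical and Trpc6 and Trpc7 71.6%. The other TRPC pairs lay between 58.9% and 65.2% and the TRPM pairs between 60.5% and 65.7%.

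On the mm10 build, Trpc1 lies on chromosome 9 from 95705082 to 95750375 on the minus strand, Trpc6 on the same chromosome from 8544142 to 8680741 on the plus strand, Trpc4 on chromosome 3 from 54156035 to 54318471 (plus) and Trpc7 on chromosome 13 from 56773113 to 56895993 (minus). Trpc5 is X-linked, from 144381671 to 144688180 (minus), and holds 2 annotated genes on its opposite strand whose exons do not overlap its own. Trpm2 lies on chromosome 10 from 77907722 to 77970563 (minus), Trpm4 on chromosome 7 from 45302632 to 45333780 (minus) and Trpm7 on chromosome 2 from 126791565 to 126876230 (minus). Trpm3 spans 856.4 kb of chromosome 19, from 22139046 to 22995410 (plus), and hosts the microRNA gene Mir204. Exons of Trpc6, Trpm2 and Trpm3 overlap 1, 2 and 2 other annotated genes, and their counts are uncertain to that extent. The sources do not say if counting used strand, which would not separate the genes within Trpm2, since both lie on its own strand.

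Libraries held 17846282 to 24460104 counts, and 4 of them stood apart. Summed over the tested markers of each brain region, control vehicle 1 held 4550 CPM (counts per M of scaled library size, M for mega) of striatum markers, against 199 to 260 in the other control vehicle libraries and 195 to 458 in the other 3 groups. Control vehicle 2 held 2070 CPM of cerebellum markers, against 45.7 to 90.3 in the rest of its group and 19.7 to 41.2 elsewhere, and control vehicle 3 held 2050 CPM of choroid plexus markers, against 127 to 329 and 175 to 251. Cortical excitatory neuron markers summed to 1940 to 2510 CPM in the other 3 groups and 527 to 2060 in control vehicle. In control rapamycin 1, a gene's deviation from its mean over all libraries rose with the GC content of its transcript (Spearman correlation 0.75 across 10700 genes, against -0.36 to 0.23 in the other 19 libraries). The control vehicle group is the reference of most comparisons below, so values without 1 or all of its libraries 1, 2 and 3 are given beside many of the results.

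Per kilobase of annotated exon, Trpc1 was the most abundant of the 9 at 6.18 ± 0.603 CPM per kb (SD over 20 libraries), followed by Trpm7 at 5.05 ± 0.924, Trpm2 at 3.91 ± 0.571 and Trpm3 at 2.81 ± 1.14. Trpc4, Trpc5 and Trpc6 lay close together at 2.08 ± 0.408, 1.99 ± 0.569 and 1.86 ± 0.487 CPM per kb. Trpm4 had 1.40 ± 0.281 and Trpc7 was lowest at 0.491 ± 0.397 CPM per kb. Trpc1 exceeded Trpm7 in 19 of 20 libraries, Trpm7 exceeded Trpm2 in 19, Trpm2 exceeded Trpm3 in 18 and Trpm3 exceeded Trpc4 in 16. The order of Trpc4 and Trpc5 was less regular, with Trpc4 above Trpc5 in 14 libraries, and Trpc5 was above Trpc6 in only 10, so these neighbours did not differ beyond their spread. Divided by the longest transcript instead of all annotated exons, Trpm4 moved to 6th place and Trpc5 to 8th, and the other 7 kept theirs.

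**Figure D1:**
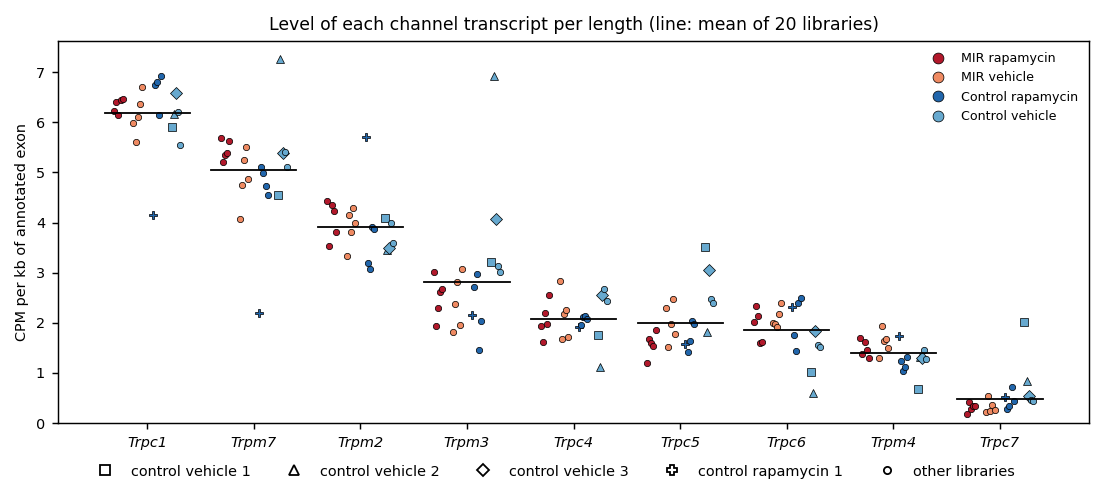
Level of each channel transcript in CPM per kb of annotated exon (vertical axis) for the 9 genes in order of their mean over 20 libraries (line), with 1 point per library coloured by group. Trpc1 averaged 6.18 and Trpc7 0.491 CPM per kb, and control rapamycin 1 (cross) is the lowest point of Trpc1 and Trpm7 and the highest of Trpm2.

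Counts of the 9 genes ranged from 14 to 180 per library for Trpc7 to 755 to 3881 for Trpm3, so Trpc7 was measured with the least precision. Trpc1 averaged 50.9 ± 1.17 CPM in MIR rapamycin, 49.4 ± 3.28 in MIR vehicle, 49.4 ± 9.31 in control rapamycin and 48.8 ± 3.10 in control vehicle (SD, n = 5 each). Trpm2 averaged 50.7 ± 4.76, 48.8 ± 4.62, 49.2 ± 13.1 and 46.4 ± 3.67 CPM in the same groups, and its highest value, 71.0 CPM, was in control rapamycin 1. Trpc4 averaged 16.5 ± 2.76, 17.1 ± 3.8, 16.4 ± 0.763 and 16.9 ± 5.28 CPM, with its lowest value, 8.99 CPM, in control vehicle 2. For these 3 channels the group means lay within the spread of single libraries. The biological coefficient of variation within groups was 42.1% for Trpc7, 25% for Trpm3, 24% for Trpc6 and 21.1% for Trpc4, and 12.2% for Trpc1, the steadiest member. The common value over all genes was 21.9%.

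**Figure D2:**
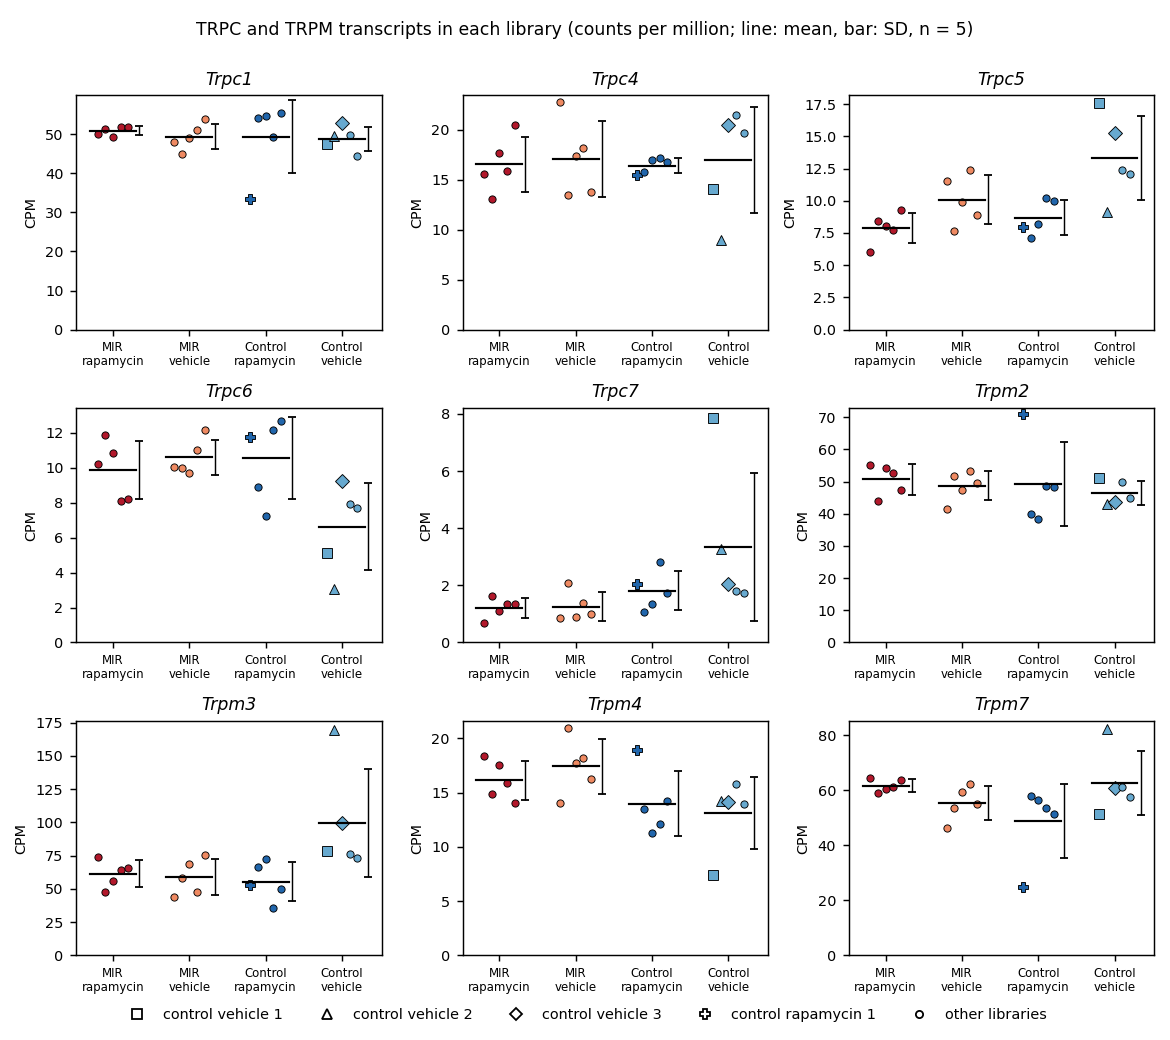
CPM of each channel transcript (vertical axis, starting at 0) in the 5 libraries of each group, with the group mean (line) and SD (bar). Squares, triangles and diamonds mark control vehicle 1, 2 and 3 and crosses control rapamycin 1. Trpm3 and Trpc5 lay lower in control rapamycin than in control vehicle, and Trpc6 lay higher in MIR vehicle than in control vehicle.

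Control rapamycin was set against control vehicle to ask what an acute dose does in animals whose dams received saline. Genes count as called when the adjusted p was under 0.05 (edgeR quasi-likelihood test, Benjamini-Hochberg over 17313 genes) and the log2 fold change exceeded 0.5 in size. Of the 9 channel genes 2 were called, Trpc5 and Trpm3, both lower after rapamycin, where 5.23% of all genes were called (906, of which 263 were higher and 643 lower). A lower level in bulk tissue can come from fewer cells of a type or from less RNA per cell, and these cannot be told apart. Markers of other regions and cell types also differed in this comparison. Cerebellum markers summed to 19.7 to 36.1 CPM in control rapamycin, all below the 45.7 to 2070 CPM of control vehicle. All 4 tested were called lower (median log2 fold change -4.07). Of 6 choroid plexus markers 3 were called lower (median -3.17). Their score is the mean log2 CPM, set to 0 in the median library. It was -0.95 to 0.04 in control rapamycin and 0.54 to 5.12 in control vehicle. Their summed CPM overlapped, at 210 to 246 in control rapamycin and 127 to 2050 in control vehicle, where control vehicle 2 was lowest. Control vehicle 4 and 5 also lay above control rapamycin by these measures. Astrocyte markers summed to 886 to 1050 CPM in control rapamycin, all below the 1070 to 2010 CPM of control vehicle, with 2 of 6 called lower, 1 higher and a median log2 fold change of -0.40. Thalamus markers summed to 51.4 to 84.7 CPM, all below 105 to 155 CPM in control vehicle (1 of 6 called lower, median -0.75). Oligodendrocyte markers summed to 2840 to 4070 CPM in control rapamycin and 2470 to 9820 CPM in control vehicle, which overlapped (2 of 6 called lower, median -0.76). Trpc5 had a correlation of 0.76 with the oligodendrocyte score over the 20 libraries and 0.67 within groups, where Trpm3 had -0.03 and -0.60. With the astrocyte score Trpm3 had 0.59 and 0.34, and with the cerebellum score 0.78 and 0.65. Other lists gave values of like size: meningeal fibroblasts 0.60 and 0.56 for Trpm3, and for Trpc5 choroid plexus 0.71 and 0.54. Trpc5 also had 0.48 and 0.71 with the 2 tested hypothalamus and septum markers. These are descriptions over libraries that share the features above, and no marker of these lists was at 0 in all 20 libraries. The part of these cell types and regions in the results was not tested.

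Trpm3 had 52.8, 66.4, 72.5, 35.5 and 50.0 CPM in control rapamycin 1 to 5, against 78.7, 169, 99.6, 76.4 and 73.5 CPM in control vehicle 1 to 5. All 5 control rapamycin libraries lay below all 5 control vehicle libraries, a separation in either direction that 6.53% of all genes showed. The group means were 55.4 ± 14.5 and 99.5 ± 40.4 CPM (SD, n = 5 each), and the log2 fold change was -0.84 ± 0.23 (SE), with a 95% interval of -1.32 to -0.37 (edgeR adjusted p = 0.032). Control vehicle 2, the library with cerebellum markers, held the highest value, and without it the log2 fold change was -0.57 (edgeR adjusted p = 0.0858). Without control vehicle 1, 2 and 3 together it was -0.44 (edgeR adjusted p = 0.391), the same direction at a smaller size. The call also ended without control rapamycin 1, 4 or 5, at log2 fold changes of -0.83, -0.72 and -0.81 (edgeR adjusted p = 0.0623, 0.0695 and 0.0648).

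Trpc5, which is thought to act with Trpc4 in metabotropic depolarisation, had 7.94, 7.12, 8.22, 10.2 and 9.94 CPM in control rapamycin and 17.6, 9.12, 15.3, 12.4 and 12.1 CPM in control vehicle. Of the 5 control rapamycin libraries, 3 lay below every control vehicle library, and the lowest of control vehicle, at 9.12 CPM, was library 2. The means were 8.69 ± 1.33 and 13.3 ± 3.25 CPM (SD, n = 5 each), with a log2 fold change of -0.61 ± 0.17 and an interval of -0.97 to -0.26 (edgeR adjusted p = 0.0355). Without control vehicle 1 the log2 fold change was -0.49 (edgeR adjusted p = 0.0703), and without control vehicle 1, 2 and 3 it was -0.50 (edgeR adjusted p = 0.23). Leaving out control rapamycin 1, 2 or 3 or control vehicle 3 also ended the call, at -0.58, -0.55, -0.59 and -0.56 (edgeR adjusted p = 0.0694, 0.0672, 0.0664 and 0.0571). In the MIR offspring Trpc5 had 6.04, 8.40, 8.03, 7.74 and 9.27 CPM after rapamycin and 11.5, 7.66, 9.88, 12.4 and 8.90 CPM after vehicle. Here the groups overlapped, and the log2 fold change was -0.35 ± 0.17 with an interval of -0.70 to 0.01 (edgeR adjusted p = 1). Averaged over both kinds of offspring, rapamycin against vehicle gave -0.48 ± 0.12 for Trpc5 (edgeR adjusted p = 0.0375), a fold just under the limit for a call. None of the 9 was therefore called in this average, beside 1.42% of all genes (edgeR quasi-likelihood test, 3297 genes with an unadjusted p under 0.05), and DESeq2 and edgeR's likelihood ratio test called none of them either.

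**Figure D3:**
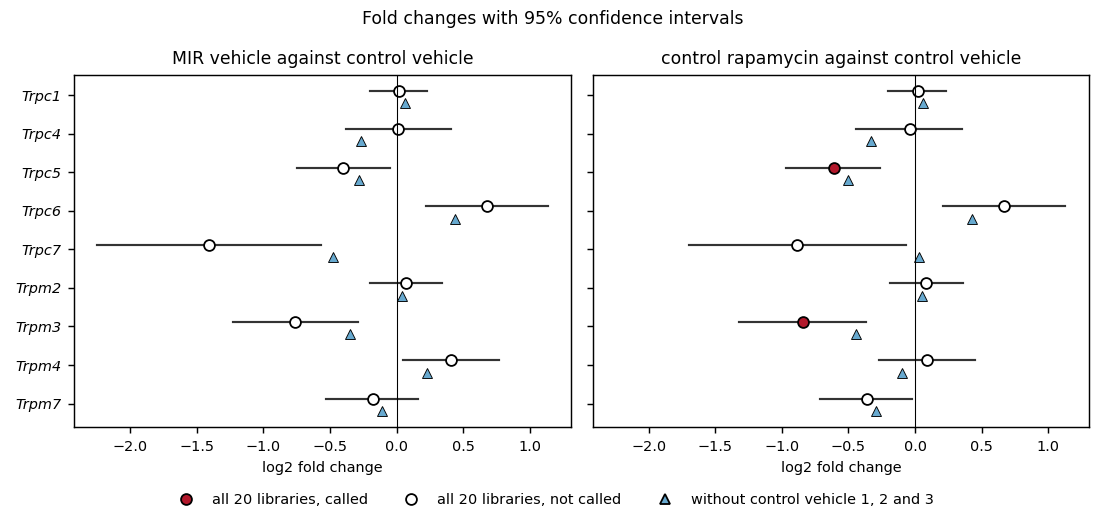
Log2 fold change (horizontal axis) of the 9 channel transcripts with 95% confidence intervals, for MIR vehicle against control vehicle (left) and control rapamycin against control vehicle (right). Filled circles passed the criterion for a call (Trpc5 at -0.61 and Trpm3 at -0.84), and triangles give the value without control vehicle 1, 2 and 3, which lay nearer to 0 for Trpc5, Trpc6, Trpc7 and Trpm3 in both panels.

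Of the other channels, 3 had an unadjusted p under 0.05 in this comparison without being called. Trpc6, opened by diacylglycerol, had 11.8, 8.89, 7.25, 12.2 and 12.7 CPM in control rapamycin and 5.14, 3.06, 9.27, 7.92 and 7.71 CPM in control vehicle (log2 fold change 0.67 ± 0.22, edgeR adjusted p = 0.063). Its 2 lowest values were those of control vehicle 2 and control vehicle 1, and without control vehicle 1, 2 and 3 the log2 fold change was 0.43 (edgeR adjusted p = 0.342). DESeq2 and edgeR's likelihood ratio test called Trpc6 here (adjusted p = 0.031 and 0.0375), as did the quasi-likelihood test without control vehicle 3 (0.83, edgeR adjusted p = 0.0341). Trpc7 had 2.06, 1.07, 1.36, 2.82 and 1.73 CPM in control rapamycin and 7.84, 3.27, 2.06, 1.78 and 1.72 CPM in control vehicle (-0.89 ± 0.39, edgeR adjusted p = 0.15). That difference rested on control vehicle 1: without it the log2 fold change of Trpc7 was -0.29, and without control vehicle 1, 2 and 3 it was 0.03. Trpm7 had 24.9, 57.8, 56.4, 53.5 and 51.4 CPM in control rapamycin and 51.5, 82.3, 60.9, 61.2 and 57.7 CPM in control vehicle (-0.36 ± 0.17, edgeR adjusted p = 0.164), and -0.19 without control rapamycin 1. Trpc1, Trpc4, Trpm2 and Trpm4 had unadjusted p of 0.867, 0.818, 0.522 and 0.601 in the same fit.

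In MIR offspring, the rapamycin and vehicle groups gave no called channel (edgeR quasi-likelihood test, 0 of 9, beside 0.0173% of all genes called and 864 genes with an unadjusted p under 0.05), and neither DESeq2 nor edgeR's likelihood ratio test called any of the 9. None of the 9 separated all 5 libraries of each group, which 2.78% of all genes did. Trpm3, called in the control offspring, had 73.8, 47.4, 56.1, 63.9 and 65.6 CPM in MIR rapamycin and 44.2, 58.1, 68.8, 47.8 and 75.2 CPM in MIR vehicle, with an interval of the log2 fold change from -0.41 to 0.53. The difference between the rapamycin effects of MIR and control offspring was tested as an interaction: it was 0.90 ± 0.32 for Trpm3 (edgeR adjusted p = 0.332), -0.78 ± 0.31 for Trpc6 (edgeR adjusted p = 0.343) and 0.52 ± 0.23 for Trpm7 (edgeR adjusted p = 0.375). Leaving out control vehicle 1, 2 and 3 made these 0.50, -0.53 and 0.45. For Trpc5 the interaction had an interval of -0.24 to 0.76. No channel and no other gene was called in the interaction (0% of all genes, edgeR quasi-likelihood test, 2200 with an unadjusted p under 0.05), and DESeq2 and the likelihood ratio test called none of the 9, so the effect of rapamycin on Trpm3 and Trpc5 was not shown to differ between the kinds of offspring.

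MIR vehicle was set against control vehicle to ask what differed with the maternal exposure in animals not given rapamycin. None of the 9 channels was called by the edgeR quasi-likelihood test, beside 0.0982% of all genes (17, of which 12 were higher and 5 lower) and 2826 genes with an unadjusted p under 0.05. DESeq2 and edgeR's likelihood ratio test each called Trpc7 and Trpm3, among 418 and 419 genes. Cerebellum and thalamus markers summed to 21.5 to 36.4 and 74.4 to 92.7 CPM in MIR vehicle, all below the 45.7 to 2070 and 105 to 155 CPM of control vehicle. Endothelium markers, at 268 to 323 CPM, lay above its 201 to 246 CPM, and the other marker lists overlapped. The part of these cells and regions in this comparison was not tested. Trpc6 had 10.1, 10, 9.70, 11 and 12.2 CPM in MIR vehicle, all above the 5.14, 3.06, 9.27, 7.92 and 7.71 CPM of control vehicle. Such a separation was seen for 3.00% of all genes in either direction. The means were 10.6 ± 1.02 and 6.62 ± 2.49 CPM (SD, n = 5 each) and the interval of the log2 fold change was 0.22 to 1.14 (edgeR adjusted p = 0.141), and its size was 0.44 without control vehicle 1, 2 and 3.

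Trpc7, the nearest paralogue of Trpc6 among the members, lay on the other side. It had 0.87, 2.10, 0.91, 1.37 and 1.01 CPM in MIR vehicle, of which 4 were below all of control vehicle (7.84, 3.27, 2.06, 1.78 and 1.72 CPM), with an interval of -2.25 to -0.57 (edgeR adjusted p = 0.102). Leaving out control vehicle 1 gave a log2 fold change of -0.82, and leaving out control vehicle 1, 2 and 3 gave -0.48. The ratio of Trpc6 to Trpc7 CPM within a library had a median of 7.34 in MIR rapamycin, 10.7 in MIR vehicle, 5.72 in control rapamycin and 4.44 in control vehicle, where control vehicle 1 and 2, at 0.656 and 0.933, were the only libraries with more Trpc7 than Trpc6. The ratio of Trpc5 to Trpc4 had medians of 0.454, 0.569, 0.515 and 0.746 in the same order of groups and reached 1.25 in control vehicle 1. These ratios were chosen after the values had been seen and are given without a test.

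Trpm3 had 44.2, 58.1, 68.8, 47.8 and 75.2 CPM in MIR vehicle and 78.7, 169, 99.6, 76.4 and 73.5 CPM in control vehicle, with 4 MIR libraries below all of the control vehicle libraries and an interval of -1.23 to -0.29 (edgeR adjusted p = 0.115). Leaving out control vehicle 2 gave -0.48, and leaving out control vehicle 1, 2 and 3 gave -0.35. Trpm4, the calcium-activated channel, had 14.1, 20.9, 17.7, 18.2 and 16.3 CPM in MIR vehicle and 7.40, 14.2, 14.2, 15.8 and 14.0 CPM in control vehicle (log2 fold change 0.41 ± 0.17, edgeR adjusted p = 0.234), with 4 of the 5 MIR libraries above every control. The control libraries 2 to 5 lay between 14.0 and 15.8 CPM, and control vehicle 1 well below them. Leaving out control vehicle 1 gave 0.26 for Trpm4 (edgeR adjusted p = 0.388), and leaving out control vehicle 1, 2 and 3 gave 0.23. Trpc5 stood at -0.40 ± 0.17 (edgeR adjusted p = 0.237), and at -0.28 without these 3 libraries. For the remaining channels the intervals of the log2 fold change were -0.20 to 0.23 for Trpc1, -0.38 to 0.41 for Trpc4, -0.20 to 0.34 for Trpm2 and -0.53 to 0.16 for Trpm7. Of these, Trpc1 could have differed by at most 0.23 on the log2 scale in either direction within that interval, while for Trpc4 and Trpm7 wider differences could not be told from none.

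**Figure D4:**
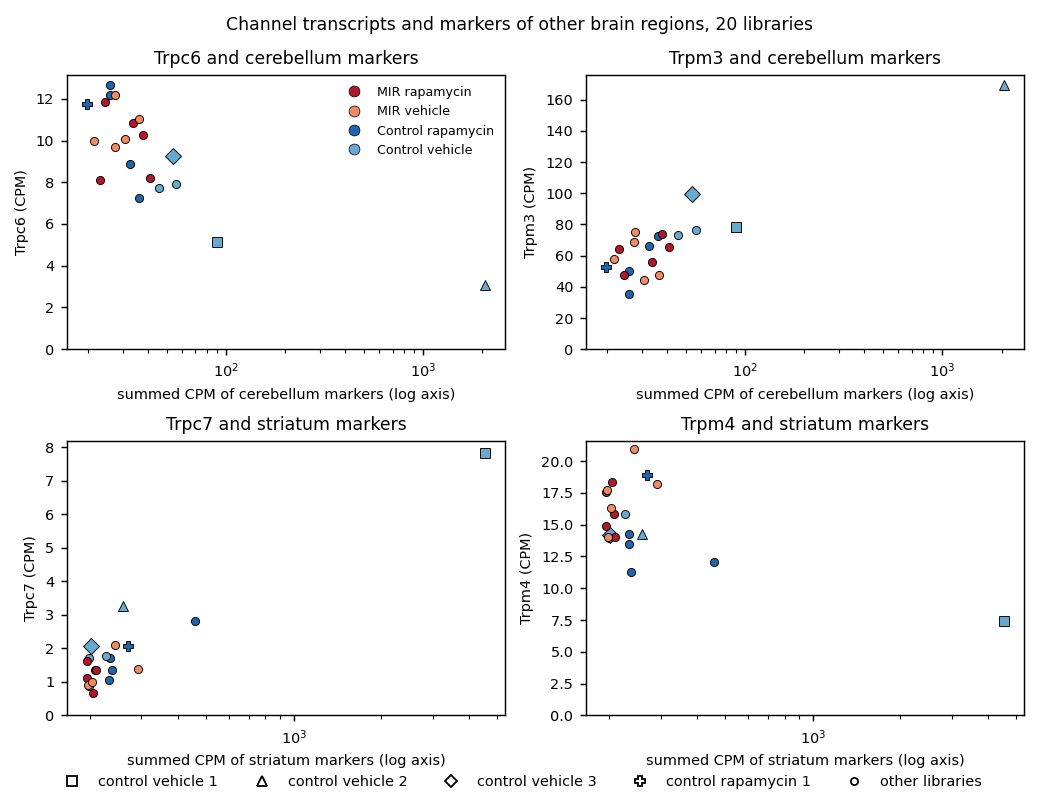
CPM of a channel transcript (vertical axis) against the summed CPM of region markers (horizontal log axis) in the 20 libraries, coloured by group. Control vehicle 2 (triangle), at 2070 CPM of cerebellum markers, was the lowest for Trpc6 (3.06 CPM) and the highest for Trpm3 (169 CPM), and control vehicle 1 (square), at 4550 CPM of striatum markers, was the highest for Trpc7 (7.84 CPM) and the lowest for Trpm4 (7.40 CPM).

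Relative to the mean of control vehicle 4 and 5, control vehicle 2 was higher in log2 CPM by 1.18 for Trpm3, 0.87 for Trpc7 and 0.47 for Trpm7, and its differences were -1.33 for Trpc6 and -1.18 for Trpc4. Control vehicle 1 differed by 2.10 for Trpc7 and 0.52 for Trpc5, and by -1 for Trpm4, -0.60 for Trpc6 and -0.54 for Trpc4. Control vehicle 3 differed by 0.41 for Trpm3 and 0.32 for Trpc5 and by no more than 0.24 in size for the other 7. The part of these markers in the channel results was not tested beyond the values given without these libraries and with marker scores in the fit, where the log2 fold changes of control rapamycin against control vehicle were -0.27 for Trpc5 and -0.45 for Trpm3, with no gene called.

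Under rapamycin, MIR and control offspring were compared to ask whether a difference remained in treated animals. No channel and no other gene was called (edgeR quasi-likelihood test, 0% of all genes, 1745 with an unadjusted p under 0.05), and DESeq2 and edgeR's likelihood ratio test called none of the 9 among the 86 and 90 genes they called. Trpm7, the channel with a kinase domain, had 64.3, 59.0, 60.5, 61.1 and 63.6 CPM in MIR rapamycin, all above the 24.9, 57.8, 56.4, 53.5 and 51.4 CPM of control rapamycin. A separation of all 5 from all 5 libraries was seen for 4.12% of all genes in this comparison. The log2 fold change was 0.34 ± 0.17 (edgeR adjusted p = 0.504), and 0.17 without control rapamycin 1. The means were 61.7 ± 2.23 and 48.8 ± 13.6 CPM (SD, n = 5 each).

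Control rapamycin 1 separated the members by the base composition of their transcripts, a pattern noticed in the values and given without a test. Compared with control rapamycin 2 to 5, Trpm7, with the lowest GC content at 40.1%, differed by -1.13 in log2 CPM, and Trpc1, at 45.2% GC, by -0.68. The members richest in GC stood on the other side: Trpm2 at 53.8% GC differed by 0.71 and Trpm4 at 56.8% by 0.57. Trpc7, at 51.7% GC, differed by 0.31, and Trpc6, Trpm3, Trpc4 and Trpc5, between 45.6% and 48.3%, by 0.23, -0.03, -0.11 and -0.14. The median GC content over tested genes was 49.5%.

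**Figure D5:**
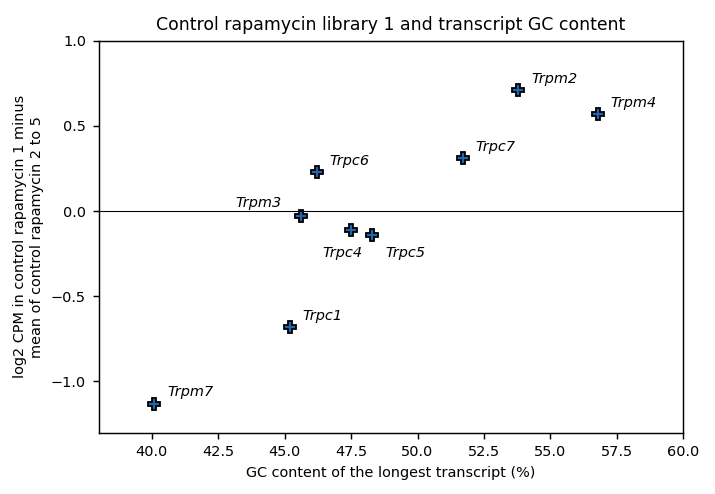
Difference in log2 CPM between control rapamycin 1 and the mean of control rapamycin 2 to 5 (vertical axis) against the GC content of the longest transcript in percent (horizontal axis), 1 point per channel. Trpm7 (40.1% GC) lies at -1.13 and Trpm2 (53.8% GC) at 0.71.

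Over both treatments together, no channel was called between MIR and control offspring by the edgeR quasi-likelihood test, beside 0.606% of all genes (105, of which 99 were higher and 6 lower), with 2288 genes at an unadjusted p under 0.05. The smallest p among the members belonged to Trpc7 (log2 fold change -0.98 ± 0.29, interval -1.58 to -0.39, edgeR adjusted p = 0.134), which DESeq2 and edgeR's likelihood ratio test called (adjusted p = 0.0411 and 0.0487). Without control vehicle 1, 2 and 3 it was -0.52 for Trpc7 (edgeR adjusted p = 0.405). Trpm4 stood at 0.31 ± 0.12 (edgeR adjusted p = 0.285) and Trpc5 at -0.27 ± 0.12 (edgeR adjusted p = 0.346).

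Members varied together in part. After subtracting group means, the log2 CPM of Trpc1 and Trpm7 had a correlation of 0.83 over the 20 libraries and those of Trpc1 and Trpm2 one of -0.73. Without control vehicle 1, 2 and 3 and control rapamycin 1 these were 0.30 and -0.08. Trpc5 and Trpm3 had -0.65, and -0.66 over the 16 libraries left. Among the 13196 genes that averaged 1 CPM or more, the gene most like each member by the same measure was Kbtbd7 for Trpc1 (r = 0.95), St6galnac5 for Trpc4 (0.88), Sdr42e1 for Trpc5 (0.90), Htatip2 for Trpc6 (0.90), Pcdhga6 for Trpc7 (0.85), Uqcrc1 for Trpm2 (0.90), Col9a2 for Trpm3 (0.89), Cemip for Trpm4 (0.92) and Zfp397 for Trpm7 (0.97). These libraries share the regions and the base composition described above, and the correlations are descriptions.

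Of 18 other TRP channel genes, 9 could be tested. Pkd2, a calcium-permeable channel of primary cilia, was the only call in rapamycin against vehicle in control offspring (-0.52 ± 0.13, edgeR adjusted p = 0.0262), and 84.8 CPM in control vehicle 2 was its highest value, against 46.6 to 55.6 CPM in the rest of that group. Without control vehicle 2 the log2 fold change of Pkd2 was -0.34 (edgeR adjusted p = 0.0402), without control rapamycin 1 it was -0.46 (edgeR adjusted p = 0.0579) and without control vehicle 1, 2 and 3 it was -0.43 (edgeR adjusted p = 0.113). The median log2 fold change of the 9 genes was -0.72 there, beside -0.03 over all genes tested. This median rests largely on low counts: Trpm6, Trpv1, Trpv3, Trpv4, Trpv6 and Pkd2l1 averaged at most 2.11 CPM in either control group. Mcoln1 averaged 58.3 CPM in control rapamycin and 56 CPM in control vehicle, and Trpv2 15.8 and 13.2 CPM. Trpv1, the capsaicin and heat receptor, was the only call in MIR against control offspring over both treatments (-3.78 ± 0.73, edgeR adjusted p = 0.0143), at very low counts: 1, 2, 1, 1 and 0 in MIR rapamycin, 1, 0, 1, 2 and 2 in MIR vehicle, 6, 2, 0, 29 and 26 in control rapamycin and 0, 36, 24, 35 and 27 in control vehicle. Every MIR library held at most 2 counts, and so did 3 of the 10 control libraries, so the groups overlapped. Trpv1 passed the low-count filter only through control libraries.

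The genes that act on these channels were followed in 5 lists. Between MIR vehicle and control vehicle none of their genes was called, and the medians of the lists lay between -0.07 and 0.22, beside -0.02 over all genes. Homer1, a scaffold that tethers TRPC channels to metabotropic glutamate receptors, came nearest (1.32 ± 0.28, edgeR adjusted p = 0.0557), with 444, 374, 569, 375 and 540 CPM in MIR vehicle, all above the 147, 78.5, 184, 263 and 252 CPM in control vehicle. Stim2, a calcium sensor of the endoplasmic reticulum, stood at 0.37 (edgeR adjusted p = 0.10) and the growth factor Bdnf at 1.27 (edgeR adjusted p = 0.122). Bdnf had 34.9 to 54.0 CPM in MIR vehicle, all above control vehicle, which ran from 2.05 CPM in library 1 to 28.8 CPM in library 4. A separation like that of Homer1 and Bdnf, in either direction, was seen for 3.00% of all genes. Without control vehicle 1, 2 and 3 the log2 fold changes were 0.84 for Homer1, 0.23 for Stim2 and 0.66 for Bdnf (edgeR adjusted p = 0.571, 0.762 and 0.615). The lists of ADP-ribose metabolism, which makes the ligand of TRPM2, and of magnesium and zinc handling had no called gene in any comparison, with 9 and 14 genes tested. Their smallest p in this comparison belonged to Cd38 (-1.01, edgeR adjusted p = 0.168) and Slc41a3 (-1.19, edgeR adjusted p = 0.202). Cd38 had 1.40 to 2.68 CPM in MIR vehicle, against 6.05 and 6.98 CPM in control vehicle 1 and 2 and 2.02 to 2.24 CPM in the other 3. Slc41a3 had 2.36 to 3.37 CPM in MIR vehicle, against 17.5 CPM in control vehicle 2 and 2.43 to 5.44 CPM in the other 4. Both values rested on those libraries: the log2 fold change was -0.37 for Slc41a3 without control vehicle 2, and -0.05 for Slc41a3 and -0.17 for Cd38 without control vehicle 1, 2 and 3.

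In rapamycin against vehicle in control offspring, 4 of 23 genes of the Gq and phospholipase C arm were called, where 5.23% of all genes were. Higher were the serotonin receptor Htr2a (1.35, edgeR adjusted p = 0.0244), the diacylglycerol kinase Dgkz (0.70, edgeR adjusted p = 0.042) and the lipid kinase Pip5k1c (0.62, edgeR adjusted p = 0.0297), and lower was the serotonin receptor Htr2c (-1.90, edgeR adjusted p = 0.0199). The Dgkz call held in only 9 of the 20 fits that each left out 1 library. Pip5k1c lost its call without control rapamycin 1 or control vehicle 1 (0.51 and 0.46, edgeR adjusted p = 0.07 and 0.0208), and Htr2a without control rapamycin 4 (1.24, edgeR adjusted p = 0.0521). Htr2a had 29.7, 18.4, 19.7, 34 and 29.5 CPM in control rapamycin, all above the 15.3, 2.53, 8.84, 10.8 and 14.0 CPM in control vehicle. Of all genes 6.53% separated in this way, in either direction. All 4 lost their call when control vehicle 1, 2 and 3 were left out, at 1.08 for Htr2a, 0.47 for Dgkz, 0.35 for Pip5k1c and -1.91 for Htr2c (edgeR adjusted p = 0.143, 0.182, 0.236 and 0.0948). The median of this list was -0.02, beside -0.03 over all genes.

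Among 15 genes of store-operated calcium entry and 14 of channel-binding proteins, 2 of each were called and all 4 were lower: the calcium release channels Ryr3 (-1.29, edgeR adjusted p = 0.0142) and Itpr3 (-1.35, edgeR adjusted p = 0.0316), the membrane scaffold Cav1 (-0.75, edgeR adjusted p = 0.00603) and Homer3 (-2.69, edgeR adjusted p = 0.0287). Of all genes 5.23% were called in this comparison, 643 of the 906 lower. Homer3 and Itpr3 stood at 127 and 50.2 CPM in control vehicle 2, against 5.54 to 10.1 and 9.84 to 13.0 CPM in the other 4, and leaving it out gave -0.56 and -0.59 (edgeR adjusted p = 0.149 and 0.0587). Homer3 also lost its call without any 1 of the control rapamycin libraries (edgeR adjusted p = 0.0506 to 0.0569), and Itpr3 without control rapamycin 3, 4 or 5 (edgeR adjusted p = 0.0625 to 0.065). Cav1, which forms caveolae and binds TRPC1, kept its call without any 1 of the 20 libraries. It had 8.23, 11.8, 10.9, 7.81 and 9.86 CPM in control rapamycin, all below the 19.6, 14.0, 16.6, 15.5 and 16.2 CPM in control vehicle. Such a separation, in either direction, was seen for 6.53% of all genes in control offspring. Without control vehicle 1, 2 and 3 the log2 fold change of Cav1 was -0.71 (edgeR adjusted p = 0.0757). In MIR offspring Cav1 had 13.6, 9.88, 13.7, 11.6 and 14.2 CPM after rapamycin, all below the 18.7, 15.3, 16.5, 15.3 and 19.5 CPM after vehicle. It was not called there by the edgeR quasi-likelihood test, and 2.78% of all genes separated in this way, in either direction. Markers of pericytes and smooth muscle lay lower beside Cav1. They summed to 160 to 201 CPM in MIR rapamycin, all below the 212 to 266 CPM of MIR vehicle. None of 8 was called, and the median log2 fold change was -0.44. Endothelium markers overlapped, at 228 to 325 CPM in MIR rapamycin and 268 to 323 CPM in MIR vehicle (none of 7 called, median -0.24). In control offspring the pericyte and smooth muscle markers summed to 179 to 197 CPM after rapamycin and 178 to 267 CPM after vehicle (none of 8 called, median -0.27). In the average over both kinds of offspring their median was -0.34. The endothelium medians were -0.09 in control offspring and -0.14 in the average, with 1 of 7 called lower in each. The part of these cells in the Cav1 values was not tested. Averaged over both kinds of offspring Cav1 was lower after rapamycin by a log2 fold change of -0.60 ± 0.09 (edgeR adjusted p = 0.0015), and without control vehicle 1, 2 and 3 the value was -0.57 (edgeR adjusted p = 0.00821). Ryr3 was the only other gene of these lists called in that average (-0.81 ± 0.20, edgeR adjusted p = 0.0322), a call that held in 10 of the 20 fits that left out 1 library, with -0.72 without control vehicle 1, 2 and 3 (edgeR adjusted p = 0.056). Pip5k1a and the magnesium transporter Magt1 passed the p threshold there with folds under the limit, at 0.22 and -0.49 (edgeR adjusted p = 0.0285 and 0.0492).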

How the data were processed

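According to labels and methods, the authors prepared stranded mRNA libraries, aligned paired-end reads to mm10 with STAR 2.4.0 and counted reads per gene with HTSeq 0.6.1. The deposited table holds raw counts. The methods name RefSeq genes, but the IDs are Ensembl's; all 9 channel IDs matched GENCODE on mm10, the source of coordinates, lengths and sequences. Libraries removed at quality control, and whether counting used strand, are not given in the sources used here. Among the deposited symbols 27 had been turned into dates, and these were left out of the search for similar genes after the first result had been one of them.

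In R 4.3.3, edgeR 4.0.16 kept genes by filterByExpr (minimum count 10, minimum total 15), scaled by TMM and fitted 4 group means to 20 libraries with its quasi-likelihood test, which was tested on simulated data. The simulated libraries held no region markers or GC trend, so that run does not cover the libraries that stood apart. log2 CPM used a prior count of 2. Comparisons that share the control vehicle group are not independent. Replicates are mice, and which of them share a litter is not given, so p-values measure the spread between these libraries. Alternatives were DESeq2 1.42.0, edgeR's likelihood ratio test, limma 3.58.1 voom, other size factors and filters, subsets of libraries, a replicate block and marker covariates. The members, the gene lists and the rule for naming genes (every called list gene, up to 4 with the smallest p in MIR against control under vehicle and 2 in the rapamycin average) were chosen with earlier results of these data known. Genes named as the most like a member had the highest r. CPM ranges and library values of single genes were added after their values were seen. A few items of the gene lists and sequences are not reported here and were left out of the counts and medians of the lists.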

Additional observations from a re-analysis of the deposited data

Results flagged for a closer look

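Each of the 36 sets of 5 CPM values (9 channels in 4 groups) was checked for a highest or lowest library far from the others, and 5 stood out, where chance gives about 5% of sets. Trpc1 had 33.3 CPM in control rapamycin 1, against 49.3 to 55.5 in the other 4, and Trpm7 had 24.9 CPM in the same library, against 51.4 to 57.8. Trpc7 had 7.84 CPM in control vehicle 1, against 1.72 to 3.27, and Trpm4 had 7.40 CPM there, against 14.0 to 15.8. Trpm3 had 169 CPM in control vehicle 2, against 73.5 to 99.6. These are the libraries with a GC trend, striatum markers and cerebellum markers, and the part of these features was not tested.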

How the results depend on the processing

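Of the 9 channels, 2 were called in rapamycin against vehicle in control offspring, 1 with no low-count filter, 1 with the replicate block (Trpm3 edgeR adjusted p = 0.0469, Trpc5 0.0531) and 0 with only the 2 groups fitted, with region marker covariates, with a GC slope covariate, without control vehicle 1, 2 and 3, and without these and control rapamycin 1. The last setting and the GC covariate were chosen after seeing the data. All genes called there numbered 906, and 425 with the block, 13 with only the 2 groups, 0 with marker covariates, 435 with the GC covariate, and 36 and 74 without those libraries. Leaving out each library gave 0 to 2 calls: Trpc5 was lost without control rapamycin 1, 2 or 3 or control vehicle 1 or 3, Trpm3 without control rapamycin 1, 4 or 5 or control vehicle 2, and Trpc6 was called without control vehicle 3 (0.83, edgeR adjusted p = 0.0341). DESeq2 called Trpc6 as well (adjusted p = 0.031). In MIR against control under vehicle, where no channel was called, DESeq2 and the likelihood ratio test each called 2, Trpc7 (adjusted p = 0.0309 and 0.0361) and Trpm3 (0.0428 and 0.0421), and all genes called were 418 and 419 against 17. Over both treatments each called 1, Trpc7. In the rapamycin average, leaving out a library gave 0 to 1 calls (Trpc5), and in the other comparisons 0. Directions turned for 2 values: Trpc7 in control offspring was 0.03 without control vehicle 1, 2 and 3, and Homer3 was 0.18 with marker covariates. The 9 list genes called between control rapamycin and control vehicle all lost their call with only the 2 groups fitted and without control vehicle 1, 2 and 3. Trpv1 kept its call in every setting run (adjusted p 0.00011 to 0.0446), but it passed the low-count filter only through control libraries. Of 63 fold changes (9 channels, 7 comparisons), the settings were followed one by one for the 23 with an unadjusted p under 0.1, a limit set after seeing that small values change sign: of the other 40, between -0.56 and 0.85, 30 changed sign in some setting and none was ever called. All 9 ranks held on raw library totals. Of the 27 most similar genes, 10 were shared without subtracting group means and 8 without control vehicle 1, 2 and 3. Same-numbered libraries of different groups had correlated deviations of -0.15 to 0.20 (30 pairs), against -0.21 to 0.27 for different numbers (120 pairs). No pairing by number was seen, but these values cannot exclude one, as litters are not known. Depth limits Trpc7, with 14 to 180 counts.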
